A study of Mus musculus with 12 samples.

Results

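The matricellular genes followed in mouse left ventricle were Postn, Thbs1, Thbs2, Thbs3, Thbs4, Tnc, Sparc, Cilp, Fn1 and Spp1. They were taken by symbol from the deposited table of estimated counts, and all 10 symbols were found among its 29564 genes. Polyadenylated RNA of 12 wild-type C57BL6 mice was sequenced, 4 from each of 3 groups, and each mouse gave its own library. Control-Veh mice (libraries C1 to C4) were non-failing and received vehicle, a mixture of DMSO, PEG-300 and water. HFpEF-Veh mice (V1 to V4) had heart failure with preserved ejection fraction, produced with a high-fat diet and L-NAME, an inhibitor of nitric oxide synthases, and received the same vehicle. HFpEF-TYA-018 mice (T1 to T4) had the same model and received 15 mg/kg by mouth of TYA-018, which inhibits the cytoplasmic deacetylase HDAC6. The series title gives a single dose, whereas the protocol in the labels gives dosing every day for weeks, and the title was followed here because the study's account of this experiment has hearts collected hours after one dose. The labels gave no diet for the control mice and no age, sex or batch. The study's methods describe male mice bought at 10 weeks of age, and for this model a comparison group kept on standard chow. Animal numbers lay together within each group, so cage, date and order of handling cannot be told apart from the group.

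Matricellular proteins are secreted into the matrix but mostly regulate how cells attach, migrate and signal rather than bear load. In the adult heart most are low in resting tissue and are known to rise when resident fibroblasts become activated, as after infarction or pressure overload. They bind integrins, CD36, CD44, CD47 and syndecans on neighbouring cells, and several control the assembly of collagen or the release of TGF-β from the matrix. Fibroblasts are not their only source, since macrophages make osteopontin (Spp1), platelets carry thrombospondin 1, and liver supplies fibronectin to plasma. Whole ventricle was sequenced, so fewer cells of a type and less RNA per cell cannot be told apart in any of the values here.

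In the HFpEF model 8 of the 10 genes rose and none fell, against 21.2% of all genes tested called in either direction (10.9% higher). After TYA-018, 5 of them (Postn, Thbs1, Tnc, Sparc and Fn1) were lower than in HFpEF-Veh, against 19.3% of all genes called (10.4% lower). That count of 5 became 2 without treated library T1, and on log2(TPM + 1) limma called 0 after the dose, where 2 had an unadjusted p under 0.05. Cilp stayed 2.28-fold higher than in Control-Veh after the dose and Postn 1.56-fold higher, a call that Postn lost in 7 of 12 fits that left out 1 library. Thbs1, Tnc and Fn1 lay within the range of the control libraries in 3, 4 and 4 of the 4 treated libraries. Without the control library C1 those counts were 3, 0 and 1, and the other Tnc and Fn1 libraries lay above the controls. Thbs4 was called in no comparison.

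Total estimated counts were 63.2 to 68.2 M per library in Control-Veh, 61.2 to 66.1 M in HFpEF-Veh and 62.7 to 83.9 M in HFpEF-TYA-018. Levels are given as CPM (counts scaled to library size, with TMM factors), which serve to compare a gene between libraries but not one gene with another. At this depth Sparc had 11041 to 32364 counts per library and Postn 904 to 3078, but Tnc had only 29 to 205 and Spp1 10 to 83, so the last pair carry the most counting error. Library C1 was above all other controls for 6 of the 10 genes, with a median ratio to the other control libraries of 1.45. Library V1 was below all other HFpEF-Veh libraries for 8 of 10, with a median ratio of 0.773. For the 10 genes, calls that turn on either library are given with and without it.

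The deposited TPM, which is per transcript length, allowed the 10 genes to be ordered. Averaged over the 12 libraries, Sparc was at 68.8 TPM, Postn at 10.85, Fn1 at 4.38, Thbs3 at 1.87, Thbs2 at 0.888, Cilp at 0.657, Thbs4 at 0.314, Spp1 at 0.272, Thbs1 at 0.240 and Tnc at 0.0638 TPM. Sparc was thus the most abundant of the matricellular genes in this tissue and Tnc the scarcest. With CPM divided by the longest annotated transcript instead, Thbs2 passed Thbs3 and Thbs1 passed Spp1, so those neighbours are not resolved. In all 12 libraries Sparc exceeded Postn, Postn exceeded Fn1, Fn1 exceeded Thbs3 and Tnc was the lowest. From Thbs3 down to Thbs1 the TPM ranges of neighbours overlapped.

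**Figure D1:**
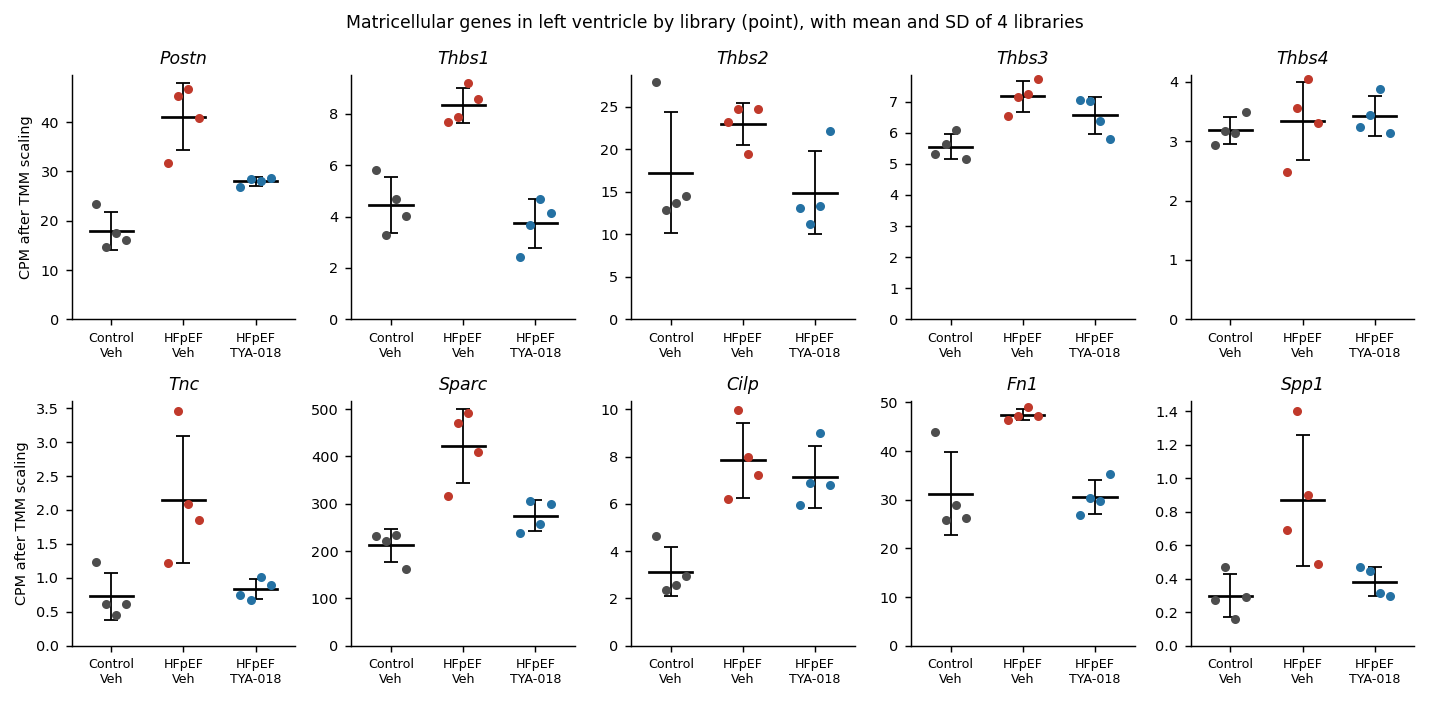
CPM after TMM scaling (vertical axes, from 0) of each of the 10 genes in the 12 libraries, with 1 point per library and the mean and SD of 4 libraries in black. Postn, Sparc, Thbs1, Fn1 and Spp1 are higher in every HFpEF-Veh library than in every library of the other 2 groups, Cilp stays high in HFpEF-TYA-018, and Thbs4 is level across groups.

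All 10 genes are protein-coding. The table of promoters from RefSeq (build GRCm38.p6) matched 8 of the 10 and had no entry for Thbs1 or Fn1. The 250 bases before the start site are shown for Postn and Sparc, the most abundant of the 10 genes, for Tnc and Spp1, the least counted, and for Cilp, which stayed high after the dose. Postn, Tnc and Spp1 have 2 entries each in that table, and the entry nearest to the annotated start of the gene is shown. Sequences run 5′ to 3′ on the strand of the gene, and capitals mark matches to the motifs searched.

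Postn, chr3:54360857-54361106, plus strand: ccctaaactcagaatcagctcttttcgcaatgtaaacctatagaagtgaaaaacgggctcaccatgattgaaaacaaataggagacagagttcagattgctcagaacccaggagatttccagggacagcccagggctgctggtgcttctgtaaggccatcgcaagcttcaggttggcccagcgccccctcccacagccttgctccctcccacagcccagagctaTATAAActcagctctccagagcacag
Tnc, chr4:64047016-64047265, minus strand: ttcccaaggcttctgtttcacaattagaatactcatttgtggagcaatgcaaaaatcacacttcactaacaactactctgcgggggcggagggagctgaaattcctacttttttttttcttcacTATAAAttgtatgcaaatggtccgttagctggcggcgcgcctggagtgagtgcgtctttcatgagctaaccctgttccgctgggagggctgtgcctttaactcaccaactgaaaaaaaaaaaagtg
Sparc, chr11:55420081-55420330, minus strand: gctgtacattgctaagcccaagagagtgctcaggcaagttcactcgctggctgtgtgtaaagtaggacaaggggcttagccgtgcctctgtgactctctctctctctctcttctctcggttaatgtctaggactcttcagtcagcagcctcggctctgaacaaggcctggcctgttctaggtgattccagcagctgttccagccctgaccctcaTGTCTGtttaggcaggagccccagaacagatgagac
Spp1, chr5:104434861-104435110, plus strand: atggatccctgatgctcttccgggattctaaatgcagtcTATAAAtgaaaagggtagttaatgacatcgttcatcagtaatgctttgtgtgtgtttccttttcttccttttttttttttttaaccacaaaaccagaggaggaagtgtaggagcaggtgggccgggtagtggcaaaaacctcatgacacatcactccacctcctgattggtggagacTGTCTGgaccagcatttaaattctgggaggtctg
Cilp, chr9:65264930-65265179, plus strand: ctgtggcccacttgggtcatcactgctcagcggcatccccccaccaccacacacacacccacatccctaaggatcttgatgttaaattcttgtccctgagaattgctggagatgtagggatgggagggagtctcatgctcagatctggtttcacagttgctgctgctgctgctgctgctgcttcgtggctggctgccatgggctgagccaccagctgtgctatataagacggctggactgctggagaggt

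The motifs were the TATA box (TATAAA, on the gene's own strand only), the AP-1 site (TGANTCA), the TEAD site (GGAATG), the Smad site (CAGACA) and the CArG box, each of the last 4 on both strands. Of 32851 promoters in the table, 7.59% held the letters TATAAA in these 250 bases, 6.75% the AP-1 letters, 12.6% the TEAD letters, 17.1% the Smad letters and 1.47% a CArG box. The Postn sequence held TATAAA beginning 26 bases before the start, and that start lies 2 bases from the one in the GENCODE M21 annotation. Tnc held it 126 bases before the start and Spp1 211 bases before. The other Tnc entry held TATAAA 205 bases and the Smad letters 71 bases before its own start, and the other entries of Postn and Spp1 held no match. The Smad letters lay 36 bases before the start in Sparc and 34 in Spp1. Among the sequences not shown, Thbs4 held the TEAD letters at 2 places that overlap and the Smad letters at 1, and Thbs2 held the Smad letters at 2. No match to any of the 5 as searched was found for Cilp or Thbs3, and none of the 8 genes held the AP-1 or CArG letters. For the TATA box only the exact letters TATAAA were searched, so a TATA box with other letters was not counted. Cilp and the other Tnc entry each hold the letters tatataag shortly before their starts. A match is only a run of letters, and binding was not measured.

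The first comparison, of HFpEF-Veh with Control-Veh, asked which matricellular genes the model altered. With edgeR's quasi-likelihood test, adjusted over 14333 genes, 8 of the 10 were called at an adjusted p under 0.05 and all 8 were higher, against 21.2% of all genes tested called in either direction and 10.9% called higher. The median log2 fold change of the 10 was 0.95, and that of all genes tested was -0.01. The 4 HFpEF-Veh libraries lay above all 4 controls for 7 of the 10 genes, against 12% of all genes tested in that direction and 23.5% in either. Without library C1, 9 were called, and without V1, 8 were.

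Periostin, encoded by Postn (chr3:54361109-54391037, plus strand), binds integrins and promotes collagen crosslinking, and it is the gene most used to mark activated cardiac fibroblasts. Its levels were 23.4, 14.6, 17.5 and 16.1 CPM in C1 to C4, 31.6, 45.2, 46.8 and 40.9 CPM in V1 to V4, and 26.8, 28.4, 27.95 and 28.7 CPM in T1 to T4. The 3 groups did not overlap at all, with treated libraries lying in a narrow band between the controls and HFpEF-Veh. Postn rose 2.30-fold in the model (17.9 ± 3.87 to 41.1 ± 6.82 CPM, SD, n = 4; log2 fold change 1.200 ± 0.14 SE, edgeR adjusted p 0.000528). The Postn call held in each of the 21 other fits tried for this comparison.

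Sparc (chr11:55394500-55423183, minus strand) encodes osteonectin, a collagen-binding protein needed for mature collagen fibrils. It measured 232, 221, 234 and 161 CPM in the controls, 317, 471, 492 and 409 CPM in HFpEF-Veh and 239, 305, 256 and 299.9 CPM after TYA-018. As for Postn, no library of one group overlapped those of another. The rise in the model was 1.99-fold (log2 fold change 0.99 ± 0.15 SE, edgeR adjusted p 0.00144).

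Cilp (chr9:65265180-65280605, plus strand) encodes cartilage intermediate layer protein, a matrix protein of cartilage and of fibrotic heart that binds TGF-β1. Its 4 controls were at 4.65, 2.37, 2.57 and 2.93 CPM, the HFpEF-Veh libraries at 6.21, 9.96, 7.98 and 7.24 CPM, and the treated libraries at 5.94, 6.87, 9.00 and 6.79 CPM. Every library of the model, treated or not, exceeded every control. The increase in HFpEF-Veh was 2.50-fold (log2 fold change 1.32 ± 0.22 SE, edgeR adjusted p 0.00204).

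Fn1 (chr1:71585520-71653200, minus strand) encodes fibronectin, the glycoprotein scaffold on which collagen and other matrix proteins assemble. Controls held 43.9, 25.8, 28.9 and 26.3 CPM, with C1 far above the rest, while HFpEF-Veh was tight at 46.4, 47.3, 49.0 and 47.3 CPM. Treated libraries were at 26.9, 30.3, 29.7 and 35.3 CPM, inside the range of the controls only through C1, since without it 1 of the 4 lay inside and 3 lay above. Fn1 rose 1.52-fold in the model (log2 fold change 0.60 ± 0.15 SE, edgeR adjusted p 0.0137), and by 0.81 on the log2 scale without C1 (edgeR adjusted p 0.000316).

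Of the thrombospondins, Thbs1 and Thbs2 encode the trimeric forms that restrain angiogenesis, and thrombospondin 1 also activates latent TGF-β. Thbs1 (chr2:118111876-118127133, plus strand) was at 5.82, 3.28, 4.70 and 4.01 CPM in the controls, 7.67, 7.89, 9.19 and 8.57 CPM in HFpEF-Veh and 2.43, 3.67, 4.69 and 4.15 CPM after TYA-018. The HFpEF-Veh libraries stood above all 8 others, and the treated ones mingled with the controls. Thbs1 rose 1.87-fold in the model (log2 fold change 0.90 ± 0.20 SE, edgeR adjusted p 0.00904).

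Thbs2 (chr17:14665500-14694235, minus strand) was at 27.9, 12.9, 13.8 and 14.5 CPM in the controls, 23.2, 24.8, 19.5 and 24.7 CPM in HFpEF-Veh and 13.1, 11.2, 13.3 and 22.1 CPM in treated hearts. Here C1 exceeded every HFpEF-Veh library, although the other 3 controls lay below all of them. The log2 fold change in the model was 0.41 ± 0.26 SE and did not pass (edgeR adjusted p 0.268, 95% interval -0.16 to 0.99). Without C1 it was 0.75 and passed (edgeR adjusted p 0.0173), so the call for Thbs2 rests on that 1 library.

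Thbs3 and Thbs4 encode the pentameric thrombospondins, of which thrombospondin 4 is known as a protein of the secretory pathway and matrix in stressed heart muscle. Thbs3 (chr3:89215180-89226837, plus strand) was at 5.17 to 6.09 CPM in control, 6.55 to 7.74 CPM in model and 5.81 to 7.05 CPM in treated hearts. Its change in CPM was the smallest of those called, 1.29-fold, without overlap between HFpEF-Veh and Control-Veh (log2 fold change 0.37 ± 0.09 SE, edgeR adjusted p 0.0146). Thbs3 changed more once the deposited effective lengths were taken into account, by 1.37 on the log2 scale (edgeR adjusted p 0.0210), and on rescaled TPM it was 1.16 (limma adjusted p 0.0333). Thbs4 (chr13:92751590-92794818, minus strand) was at 2.93 to 3.49, 2.48 to 4.04 and 3.14 to 3.88 CPM in the same order, with the groups overlapping throughout. Its log2 fold change in the model was 0.07 ± 0.14 SE (edgeR adjusted p 0.758, 95% interval -0.25 to 0.40). That interval excludes a change of the size seen in Thbs1 but holds the 0.37 of Thbs3.

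The pair with the fewest counts had the largest fitted increases, with wide errors. Tnc (chr4:63959785-64047015, minus strand) encodes tenascin C, which loosens adhesion to fibronectin and is nearly absent from healthy myocardium. It was at 1.23, 0.614, 0.457 and 0.613 CPM in the controls, 1.22, 3.46, 2.08 and 1.86 CPM in HFpEF-Veh and 0.754, 0.678, 1.01 and 0.893 CPM after TYA-018. Libraries C1 and V1 were level with each other, and the other 3 HFpEF-Veh libraries exceeded all controls. All 4 treated libraries lay below C1 and above the other 3 controls. Tnc rose 2.94-fold (log2 fold change 1.56 ± 0.35 SE, edgeR adjusted p 0.0100).

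Spp1 (chr5:104435118-104441050, plus strand) encodes osteopontin, an integrin ligand made by both fibroblasts and macrophages. The 4 controls were at 0.271, 0.468, 0.158 and 0.292 CPM, HFpEF-Veh at 0.688, 1.399, 0.896 and 0.486 CPM, and treated hearts at 0.467, 0.447, 0.317 and 0.298 CPM. HFpEF-Veh lay just above both other groups, with V4 close to C2. Spp1 rose 2.91-fold (log2 fold change 1.54 ± 0.40 SE, edgeR adjusted p 0.0169), and the call was lost without library V2 (edgeR adjusted p 0.0538). The annotation places Gm42793 across Spp1 on the same strand, and it shares 11.6% of the 50-base stretches of Spp1, so the split of reads between them is uncertain.

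**Figure D2:**
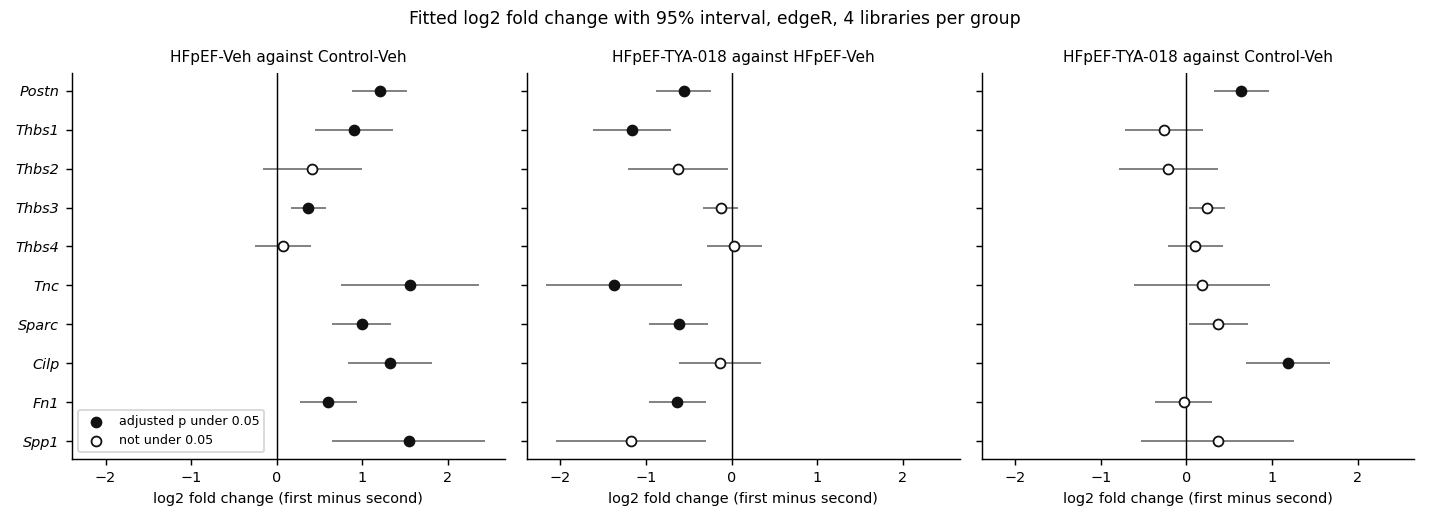
Fitted log2 fold changes (horizontal axes) of the 10 genes (rows) in the 3 comparisons, with 95% intervals from 4 libraries per group. Filled points passed an edgeR adjusted p under 0.05, which is 8 genes in the first panel, 5 in the second and 2 (Postn and Cilp) in the third.

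The second comparison set treated against untreated hearts of the model, to ask which of these genes the dose altered. Of the 10 genes 9 were lower after the dose and 5 were called, all lower, against 19.3% of all genes tested called in either direction and 10.4% called lower (8.93% were called higher). The 5 were Postn, Thbs1, Tnc, Sparc and Fn1. The median log2 fold change of the 10 was -0.62, and that of all genes was 0.00. All treated libraries lay below all HFpEF-Veh libraries for 6 of the 10 genes (the 5 called and Spp1), against 13.1% of all genes tested in that direction and 25.1% in either. Without C1, 6 were called, and without V1, 5 were, but only 2 were called without T1 and 3 without V2. HFpEF-Veh libraries enter both this comparison and the one before it, so the values in both share those samples.

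Thbs1 had the smallest p and fell to 0.448 of its HFpEF-Veh level (log2 fold change -1.16 ± 0.20 SE, edgeR adjusted p 0.00344), and kept its call whichever library was left out. Fn1 also kept its call in all 12 such fits, with a log2 fold change of -0.64 ± 0.15 SE (edgeR adjusted p 0.0121). Tnc fell by 1.37 on the log2 scale (± 0.35 SE, edgeR adjusted p 0.0193), but its call was lost without V2, T1 or T2 (edgeR adjusted p 0.0590 to 0.0595). Sparc and Postn fell less, with log2 fold changes of -0.62 ± 0.15 SE and -0.56 ± 0.14 SE (edgeR adjusted p 0.0158 and 0.0189). The Sparc call was lost without T1 (edgeR adjusted p 0.0535), and that of Postn without V2, V3 or T1 (edgeR adjusted p 0.0523 to 0.0570).

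Spp1 did not pass in this comparison although its groups were separate (log2 fold change -1.18 ± 0.39 SE, edgeR adjusted p 0.0518), and it did pass without C2, C3 or V4 (edgeR adjusted p 0.0399 to 0.0472) and with DESeq2 (adjusted p 0.0224). Thbs2 had a log2 fold change of -0.63 ± 0.26 SE that did not pass (edgeR adjusted p 0.107), and it passed without C1 or T4 (edgeR adjusted p 0.0290 and 0.0281). Cilp differed by -0.13 ± 0.21 SE on the log2 scale (edgeR adjusted p 0.699). Its 95% interval of -0.62 to 0.35 excludes a fall as large as that of Thbs1 but holds that of Postn (-0.56). Thbs3 differed by -0.13 ± 0.09 SE (edgeR adjusted p 0.357) and Thbs4 by 0.03 ± 0.14 SE (edgeR adjusted p 0.899). Differences between genes in their response were not tested.

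The third comparison, of treated hearts with Control-Veh, asked what remained different after the dose. There 2 of the 10 genes were called, both higher, against 5.86% of all genes tested called in either direction and 3.12% called higher (2.74% were called lower). Cilp was 2.28-fold higher than in the controls (log2 fold change 1.19 ± 0.22 SE, edgeR adjusted p 0.0119) and kept its call in all 12 fits that left out 1 library. Postn was 1.56-fold higher (log2 fold change 0.64 ± 0.14 SE, edgeR adjusted p 0.0252), and that call was lost without any 1 of C2, C3, C4, T1, T2, T3 and T4 (edgeR adjusted p 0.0514 to 0.0771). Groups were separate for 3 of the 10 genes, Postn, Cilp and Sparc, against 7.76% of all genes tested that were separate and higher.

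The other 8 genes did not pass, which with 4 mice per group does not show that they were back at control levels. For Sparc the log2 fold change was 0.37 ± 0.15 SE (edgeR adjusted p 0.167) and for Thbs3 it was 0.24 ± 0.09 SE (edgeR adjusted p 0.141). Fn1 had the value nearest to 0, -0.03 ± 0.15 SE (edgeR adjusted p 0.921), which turned to 0.18 without C1 (edgeR adjusted p 0.220). The intervals of Tnc and Spp1 were wide, -0.61 to 0.98 and -0.53 to 1.25 on the log2 scale, and hold both 0 and an increase larger than that of Postn. Thbs1, at -0.26, and Thbs2, at -0.21, were the others below 0, and Thbs4 was at 0.10.

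**Figure D3:**
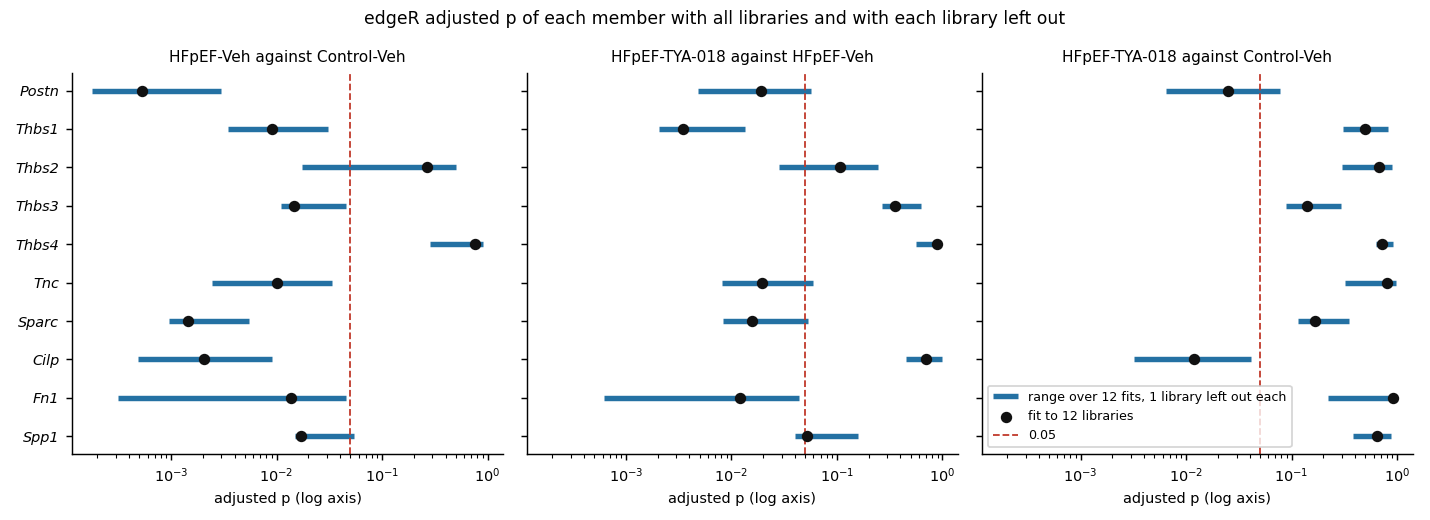
edgeR adjusted p (horizontal log axes) of each gene in the 3 comparisons, as a black point for the fit to 12 libraries and a bar for the range over 12 fits that each left out 1 library, with 0.05 dashed. In the middle panel the bars of Postn, Tnc, Sparc, Thbs2 and Spp1 cross 0.05, and those of Thbs1 and Fn1 do not.

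The deposited effective lengths bear on how firmly some of these genes can be read. An effective length is salmon's estimate of the positions that could have given a fragment of a gene, adjusted for sequence, GC and position bias. It is averaged over transcripts by their estimated use. It can exceed the transcript itself, as for Sparc, at 5668 bases in C4 against 2300 in its longest GENCODE M21 transcript. The median tested gene varied 1.43-fold in this length between libraries, but Sparc varied 5.41-fold (1048 to 5668 bases), Spp1 3.86-fold, Thbs3 3.60-fold and Fn1 2.67-fold. For Sparc the shortest lengths were in V4 and C3 (1048 and 1077 bases) and the longest in C4 (5668 bases). Cilp and Tnc were the steadiest, at 1.13-fold and 1.23-fold. For Tnc, Thbs1 and Thbs2, though not for the other genes, every HFpEF-Veh length exceeded those of both other groups. Tnc had 6244 to 6613 bases in Control-Veh, 6869 to 7110 in HFpEF-Veh and 5800 to 6485 in HFpEF-TYA-018.

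TPM divides by these lengths, so Sparc in TPM ranged from 9.91 in C4 to 134 in V2, a 13.5-fold span against 3.05-fold in CPM. With the lengths as an offset in edgeR, the log2 fold change of Sparc in the model was 1.82 and no longer passed (edgeR adjusted p 0.0573), and Fn1 and Spp1 also lost their calls (edgeR adjusted p 0.190 and 0.119). Postn, Thbs1, Thbs3, Tnc and Cilp kept theirs. With that offset 3 genes were called after the dose, which were Postn, Thbs1 and Tnc, and only Cilp was called against the controls. Whether the lengths vary through real use of different transcripts or through the estimate was not tested.

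**Figure D4:**
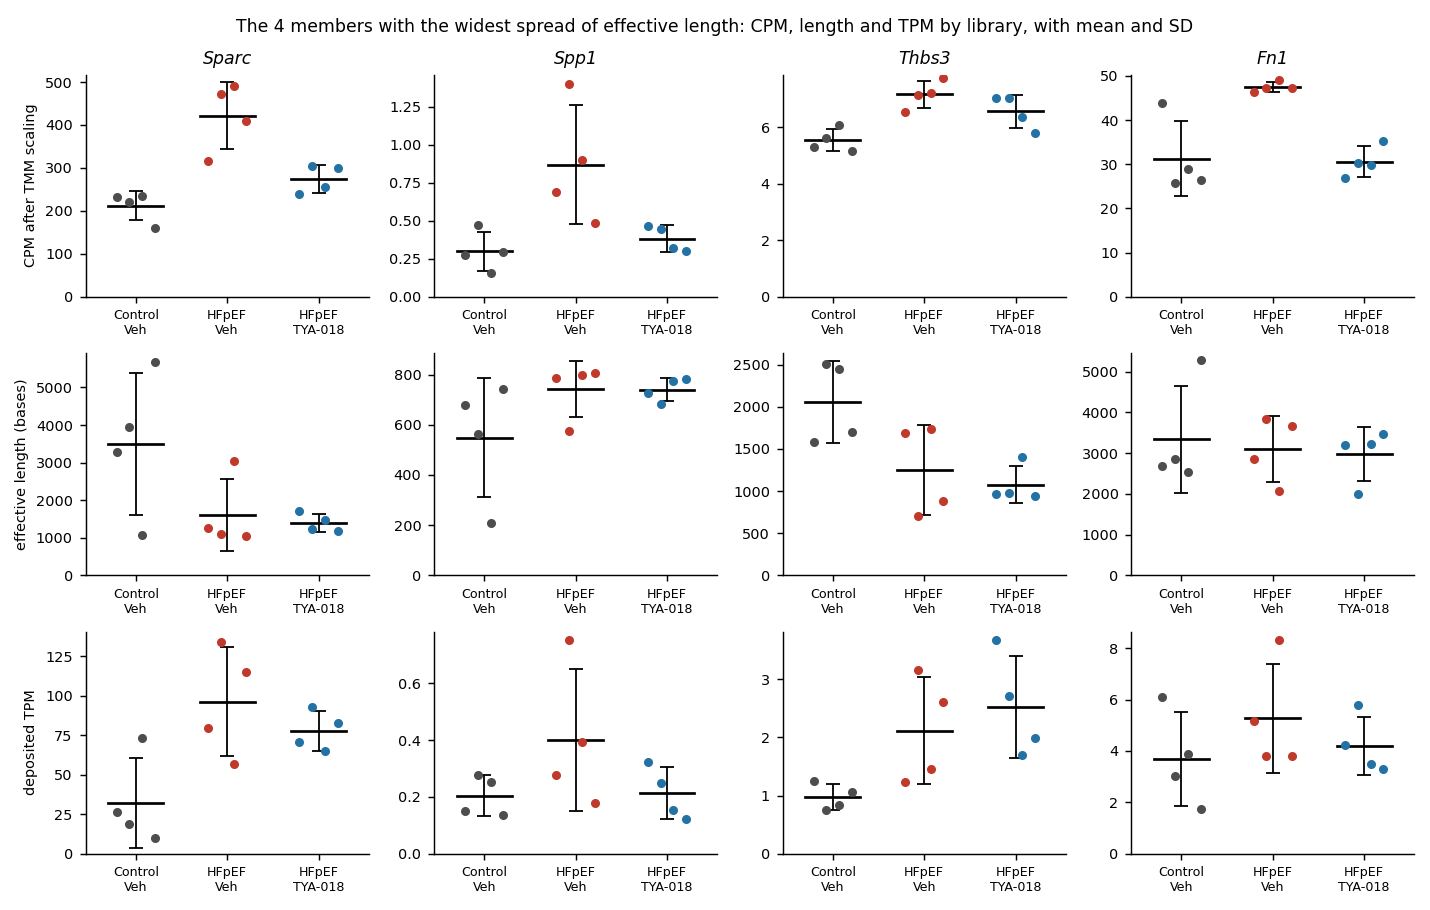
CPM after TMM scaling (top row), effective length in bases (middle row) and deposited TPM (bottom row) by library for the 4 genes whose effective length varied most, with mean and SD of 4 libraries in black. Sparc separates HFpEF-Veh from Control-Veh in CPM, whereas its lengths run from 1048 to 5668 bases and its TPM overlaps between groups.

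Fewer of the 10 genes passed on TPM scales. The scale nearest to the study's methods was log2(TPM + 1) after rescaling to protein-coding genes without mitochondrial ones. There limma called 6 of 10 in the model, where it called 649 of 13344 genes higher and 406 lower. After the dose it called 1, Thbs1 (adjusted p 0.0225), where it called 353 genes higher and 389 lower. The 9 genes that were lower in edgeR were again lower there, and the median of all genes was -0.01. On log2(TPM + 1) over all genes, without that rescaling, limma called 1 of the 10 in the model, Postn, where it called 51 of 14333 genes higher and 121 lower. After the dose it called 0 of the 10, where 2 had an unadjusted p under 0.05, while 2228 genes were called higher and 68 lower. On that scale the median of all genes was higher by 0.17 after the dose, and the median of the 10 genes was -0.09. Cilp and Thbs3 turned to 0.12 and 0.19 there, and neither passed.

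Related genes were examined for the same comparisons. Over all genes tested, 10.9% were called higher and 10.3% lower in the model. After the dose 8.93% were called higher and 10.4% lower, and against Control-Veh 3.12% higher and 2.74% lower. Of 22 other matricellular genes 18 were expressed enough to test (Ccn6, Tnn, Spock1 and Spock3 were not). In the model 6 of the 18 were called higher and none lower, with a median log2 fold change of 0.35. After the dose 6 were called lower and none higher, with a median of -0.25. By sign, called or not, 11 were higher and 7 lower in the model, and 15 lower and 3 higher after the dose. Nov (Ccn3), a secreted growth regulator, was at 3.60 ± 0.459, 6.35 ± 0.668 and 4.08 ± 0.764 CPM in control, model and treated hearts (edgeR adjusted p 0.00286 in the model and 0.0110 after the dose). Ecm1, Sparcl1 (the close relative of Sparc) and Tgfbi changed in the same 2 directions, by 0.51 and -0.48, 0.48 and -0.43, and 0.50 and -0.46 on the log2 scale (edgeR adjusted p 0.00346 to 0.0130). Mfge8, a bridge between dying cells and integrins, rose by 0.38 (edgeR adjusted p 0.00682) and differed by -0.09 after the dose (edgeR adjusted p 0.467). Against Control-Veh edgeR called 0 of the 18 in treated hearts, where 3 had an unadjusted p under 0.05 and DESeq2 called 1.

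Of 14 receptors of these proteins tested, 5 were called higher and 1 lower in the model, against 21.2% of all genes called. Their median log2 fold change was 0.24, with 12 higher and 2 lower by sign. After the dose 3 were called lower and 1 higher, against 19.3% of all genes called. The median was then -0.30, with 13 lower and 1 higher by sign. These receptor counts depended on single libraries, with 3 called in the model without C4, and after the dose 1 called without T1 or T2 and 2 without any 1 of V1 to V4. Itgb1, the β1 integrin chain shared by most matrix receptors, went from 171 ± 20.7 to 237 ± 14.6 and to 196 ± 6.60 CPM (edgeR adjusted p 0.00256 and 0.0350). Its partner Itga5, with which it forms the fibronectin receptor, rose by 0.24 and then fell by 0.19 on the log2 scale (edgeR adjusted p 0.0169 and 0.0465). Itga9, the tenascin C and osteopontin receptor chain, rose by 0.50 (edgeR adjusted p 0.00409), differed by -0.12 after the dose (edgeR adjusted p 0.409) and was the 1 receptor called against Control-Veh (0.38, edgeR adjusted p 0.0379). Itgb6, an epithelial integrin chain that activates TGF-β, ran the other way, at 6.01 ± 1.02, 3.67 ± 0.564 and 6.504 ± 1.21 CPM (edgeR adjusted p 0.0115 and 0.0067). Cd47, the thrombospondin receptor, did not pass in the model (0.19, edgeR adjusted p 0.213) and fell by 0.37 after the dose (edgeR adjusted p 0.0302).

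Of 13 other genes of activated fibroblasts that could be tested (Cthrc1 could not), 6 were called higher in the model and none lower. After the dose 7 were called lower (4 without T1 or T2) and none higher. By sign, called or not, 9 were higher and 4 lower in the model, and 10 lower and 3 higher after the dose. The shares of all genes called in either direction were 21.2% and 19.3%. Comp and Ctgf stand in this list and in that of other matricellular genes, and Ctgf did not pass in the model (0.32, edgeR adjusted p 0.101) and fell by 0.57 after the dose (edgeR adjusted p 0.0117). The lysyl oxidase relative Loxl2, which crosslinks collagen, was at 6.69 to 10.9 CPM in control, 17.3 to 19.8 CPM in model and 9.07 to 10.1 CPM in treated hearts (log2 fold changes 1.19 and -0.93, edgeR adjusted p 0.000441 and 0.00141). For Loxl2 1 control, C1, lay above all treated libraries and the other 3 lay below them. Meox1, a transcription factor of activated fibroblasts, rose by 0.86 and then fell by 0.63 on the log2 scale (edgeR adjusted p 0.00155 and 0.00817). The collagen genes Col1a1, Col1a2 and Col3a1 rose by 0.99, 0.85 and 1.23 and then fell by 0.50, 0.46 and 0.79 (edgeR adjusted p 0.000770 to 0.0357). Acta2 and Tagln, the smooth muscle genes by which myofibroblasts are recognised, did not pass, at 0.15 and -0.28 in the model and 0.03 and 0.27 after the dose (edgeR adjusted p 0.345 to 0.927).

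Immediate early genes, which respond to handling of tissue, gave 0 calls among 8 in all 3 comparisons with edgeR, with 0, 0 and 1 at an unadjusted p under 0.05 and 0 with DESeq2. limma on log2(TPM + 1) called 1 of them after the dose.

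Cell type markers were set beside the 10 genes, because a whole ventricle holds many sources of RNA. For all marker lists, the share of all genes called in either direction was 21.2% in the model and 19.3% after the dose. Summed CPM of 7 fibroblast markers was 612 to 1020.2 in control, 955.5 to 1376 in model and 639 to 970.5 in treated hearts, with C1 the highest control. Without C1 the controls reached 924 CPM and lay below every HFpEF-Veh library. The 2-sided exact permutation p was 0.0571 both in the model and after the dose (0.114 adjusted over 36 tests of marker sums). Of these markers, 3 were called higher in the model (Pdgfra, Dpt and Col15a1, by 0.49, 0.50 and 0.59 on the log2 scale). After the dose 4 were called lower (the same 3 and Dcn, by 0.58, 0.37, 0.44 and 0.66). By sign all 7 were higher and then lower. Pdgfra went from 19.6 ± 3.97 to 27.6 ± 2.08 and to 18.4 ± 1.94 CPM (edgeR adjusted p 0.0164 and 0.00866). In edgeR fibroblast markers thus moved in the same directions as the matricellular genes, and their part in the result was not tested. On log2(TPM + 1) 3 were lower and 4 higher after the dose, and after the rescaling 7 were lower. On log2(TPM + 1) limma called 0 of the 7 in both comparisons, with 0 at an unadjusted p under 0.05, and after the rescaling 1 and 0, with 5 and 3 unadjusted.

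Macrophage markers moved with them too. All 10 were called higher in the model. After the dose all 10 were lower by sign and 5 were called, which were Mrc1, Adgre1 (listed as Emr1, the F4/80 antigen) and the complement genes C1qa, C1qb and C1qc. C1qa, C1qb and C1qc rose by 0.70, 0.79 and 0.73 and then fell by 0.53, 0.50 and 0.46 on the log2 scale, and Lyz2 rose by 0.71. Their summed CPM was 139 to 174.0 in control, 216 to 289 in model and 159 to 195 in treated hearts, without overlap in either of the first 2 comparisons (exact permutation p 0.0286 each, the smallest 4 against 4 libraries allow, 0.0857 adjusted). Mrc1, the mannose receptor of resident macrophages, was at 10.5 ± 1.34, 20.0 ± 2.41 and 10.3 ± 1.22 CPM (edgeR adjusted p 0.000634 and 0.000725). On log2(TPM + 1) limma called 1 of the 10 macrophage markers in the model and 0 after the dose, where 5 and 0 had an unadjusted p under 0.05, and after the rescaling it called 6 and 4 of the 9 that were kept. By sign 7 were lower and 3 higher after the dose on log2(TPM + 1), and all 9 were lower after the rescaling. Macrophages also make Spp1, and the part of these cells in its values was not tested.

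Among other cells, summed red cell markers had medians of 2109, 6945 and 2888 CPM in control, model and treated hearts, with 14139 CPM in V1, and all 5 rose in the model (Alas2 by 2.38 and the 4 globin genes by 1.84 to 2.15 on the log2 scale) and were lower after the dose. Summed endothelial markers were 606.7 to 779.7 CPM, 790.2 to 970.2 CPM and 587.1 to 760.5 CPM in the same order. Of 6 markers 3 were called higher in the model and lower after the dose (Pecam1, Cdh5 and Tie1, by 0.52, 0.44 and 0.23 and then by 0.58, 0.46 and 0.28 on the log2 scale). By sign 6 were lower after the dose in edgeR, but on log2(TPM + 1) 1 was lower and 5 higher. Of 7 cardiomyocyte markers 5 were called lower in the model, among them Myh6 by 0.84 and Tnnt2 by 0.49, and Actc1 rose by 0.32. After the dose all 7 were higher by sign and 2 were called (Myh6 by 0.90 and Pln by 0.29). In the platelet list all 5 were higher in the model by sign and 1 was called, Pf4 (edgeR adjusted p 0.0242). In the epicardial list, Wt1 rose by 0.69 and then fell by 0.35 on the log2 scale (edgeR adjusted p 0.00170 and 0.0392). The other epicardial marker tested, Upk3b, ran the other way without passing, at -0.43 and 2.00 (edgeR adjusted p 0.756 and 0.114), and Msln and Krt19 were not tested. All 6 plasma protein genes of liver, another source of fibronectin, fell in the model, from 29.5 to 80.2 summed CPM in the controls to 3.22 to 12.7 CPM. After the dose all 6 were higher, with a median log2 fold change of 1.55 and 3.59 to 66.3 summed CPM in treated hearts. With edgeR none of these was called, and 3 had an unadjusted p under 0.05. In the smooth muscle and pericyte list 1 of 7 was called, Rgs5, with 0.34 and -0.44 on the log2 scale. Of these 7 markers, 5 were lower in the model and 4 higher after the dose, with median log2 fold changes of -0.12 and 0.07. No valve, tendon, fat or atrial marker was called by edgeR in any comparison. Among their defining genes Tnmd, Chad, Plin1, Lep, Retn and Sln were too low to test, and Myl7 averaged 0.0541 to 0.186 CPM over the groups. Scx averaged 2.07 to 2.31 CPM, Cnmd (listed as Lect1) 1.37 to 1.64 CPM and Myl4 2.14 to 2.34 CPM. The part of these cells in the result was not tested.

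**Figure D5:**
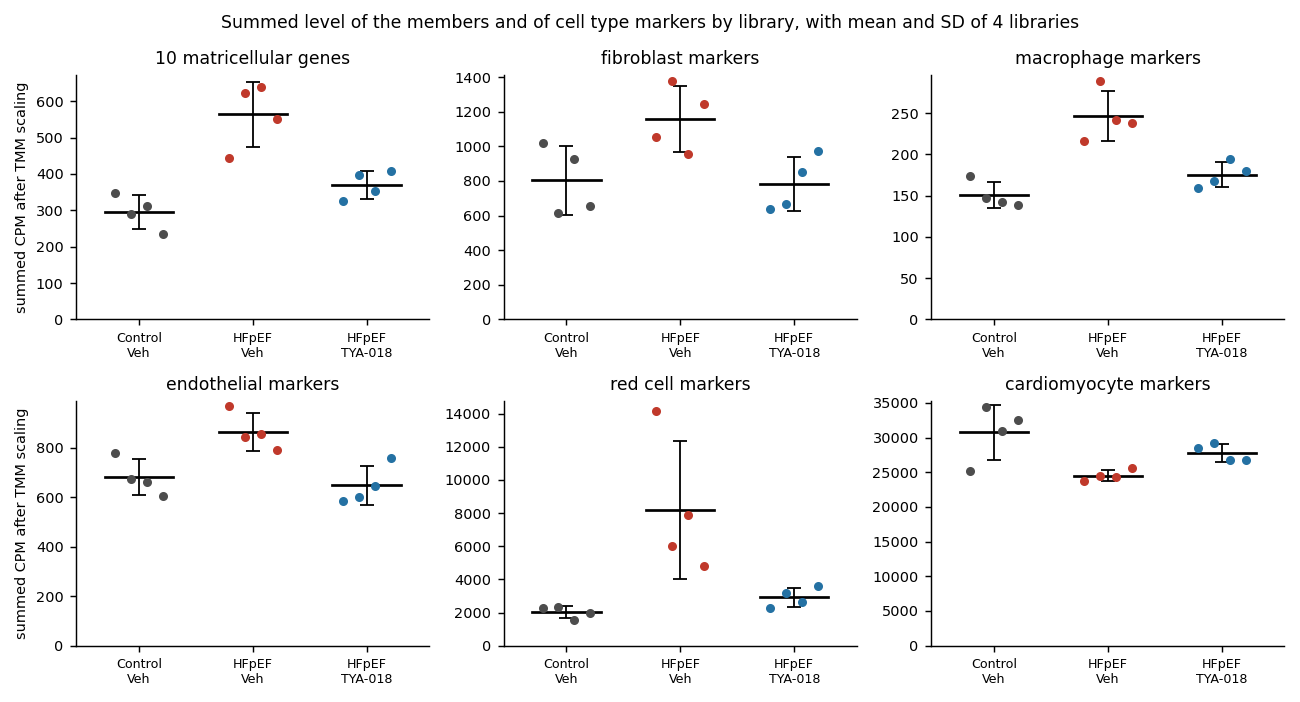
Summed CPM after TMM scaling (vertical axes, from 0) of the 10 matricellular genes and of 5 marker lists in the 12 libraries, with mean and SD of 4 libraries in black. The matricellular, macrophage, endothelial and red cell sums are highest in HFpEF-Veh without overlap, the fibroblast sum overlaps between groups, and the cardiomyocyte sum is lowest in HFpEF-Veh on average. Control-Veh and HFpEF-Veh overlap in the fibroblast and cardiomyocyte sums only through library C1.

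Within groups the 10 genes did not rise and fall as one. After centring log2 CPM on each group's mean, the median Pearson r over the 45 pairs was 0.37 across 12 libraries, with 14 pairs above 0.5 and 11 below 0. The closest pairs were Tnc with Cilp (0.88), Thbs2 with Fn1 (0.85) and Postn with Cilp (0.80), and the most opposed was Thbs2 with Thbs3 (-0.54). Among 11781 genes of at least 1 CPM on average, Postn was most like Cd248 (0.96), Cilp most like Fam208b and Col3a1 (0.93 and 0.92), Tnc most like C4b and Lyz2 (0.91 and 0.90), Sparc most like Grpel2 (0.96) and Fn1 most like Rap2a (0.97). Thbs1, Thbs2, Thbs3, Thbs4 and Spp1 were most like Zbtb38 (0.95), Flt1 (0.95), Trafd1 (0.89), Tbxa2r (0.96) and Ramp3 (0.95). All these values come from the same 12 libraries, which share their scaling, and they carry no test.

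The annotation leaves some reads unassigned between genes. Sparc shares at least 1 stretch of 50 bases with 13 other genes (0.601% of its stretches) and Fn1 with 53 (0.589%). On the opposite strand, Thbs1 overlaps Gm29233, Thbs3 overlaps Mtx1, Tnc overlaps 8030451A03Rik and Fn1 overlaps Apol7d. The libraries were made with a stranded kit, but how strand was treated in counting is not given in the sources used here.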

How the data were processed

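RNA was sequenced from left ventricle of 12 mice. The authors trimmed reads with fastp and quantified them with salmon (version 1.6.0 in the submitters' processing notes) against mouse GENCODE transcripts of GRCm38, correcting for sequence, GC and position bias, and summed transcripts to genes with tximport. The processing notes name build hg38, but the gene symbols are those of mouse. The deposited estimated counts were not normalised and 74.4% to 77.6% of them were whole numbers. The deposited TPM summed to 937748 to 963745 per library. Effective lengths came as another deposited table. Labels and methods differ on read length and layout.

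Estimated counts were rounded to whole numbers, and R 4.3.3 with edgeR 4.0.16 served for the tests. Genes passing filterByExpr (14333 of 29564, all 10 members included) were scaled by TMM, and 1 quasi-likelihood model was fitted to 12 libraries with 9 residual degrees of freedom. The Benjamini-Hochberg adjustment ran over all genes tested, and an adjusted p under 0.05 made a call. Values are CPM, mean ± SD, n = 4, with fold changes ± SE or 95% intervals. Each mouse is a separate animal, so p-values measure the spread between mice. Alternatives used DESeq2 1.42.0, limma 3.58.1, RLE scaling, no filter, lengths as offset, and leaving out each library. The model was tested on simulated data. The members and gene lists were chosen with earlier results of these data known. All 10 members were named. From each related list the genes called in either of the first 2 comparisons were named, at most 5 with the smallest p, with Acta2, Tagln and Ctgf added after their values were seen. Adgre1 and Cnmd were matched through older symbols in the RefSeq gene table. Positions are from GENCODE M21.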

Additional observations from a re-analysis of the deposited data

Results flagged for a closer look

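Of 30 groups of 4 libraries (10 genes in 3 groups), 2 held a library far from the others by Dixon's criterion, which chance gives for about 1 group in 20. Both were library C1 of Control-Veh. Thbs2 was at 27.9 CPM in C1, with the next control at 14.5 CPM. Fn1 was at 43.9 CPM in C1, with the next control at 28.9 CPM. C1 also had the highest summed fibroblast, macrophage and endothelial markers of the 4 controls and the lowest summed cardiomyocyte markers, at 25244 CPM against 30879.5 to 34400.1 CPM. The part of this difference in the values of Thbs2 and Fn1 was not tested.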

How the results depend on the processing

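No paired analysis was possible because the groups had no animal numbers in common. In the order of the 3 comparisons (model, dose, treated against control), 8, 5 and 2 of the 10 genes were called. With the effective lengths as offset 5, 3 and 1 were called, with limma on log2(TPM + 1) 1, 0 and 0, with limma on log2(TPM + 0.1) 2, 0 and 0, and after rescaling to protein-coding genes without mitochondrial ones 6, 1 and 0. In those fits with 0 calls, 2 genes after the dose and 4 against control had an unadjusted p under 0.05. Leaving out 1 library gave 7 to 9, 2 to 6 (2 without T1, 3 without V2) and 1 to 2 calls. RLE scaling, DESeq2, no filter on low counts, removal of mitochondrial and globin genes and a fit to the compared groups alone kept each count within 1.5 times. The counts for other matricellular genes, receptors and activated fibroblast genes went from 6, 6 and 6 to 1, 0 and 1 in the model on log2(TPM + 1), and from 6, 4 and 7 to 1, 1 and 0 after the dose. At an unadjusted p under 0.05, the list at 0 had 1 gene in the model and that after the dose 2. On log2(TPM + 0.1) the median of all genes was -0.17 in the model, 0.34 after the dose and 0.17 against control. Of the 10 ranks of level per length, 6 were the same with the longest annotated transcript, a choice made after seeing the data.

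Among the 10 genes, signs turned only for log2 changes that were not called. That does not hold for the related lists after the dose. On log2(TPM + 1), 4 other matricellular genes were lower and 14 higher, against 15 and 3 in edgeR. Receptors were 2 lower and 12 higher there, against 13 and 1, and activated fibroblast genes 8 and 5, against 10 and 3. After the rescaling these 3 lists had 9, 10 and 9 genes lower and 4, 4 and 3 higher. In the model, Thbs4 was -0.043 on log2(TPM + 1), -0.16 on log2(TPM + 0.1) and -0.032 to 0.19 when 1 library was left out. After the dose, Thbs3 was 0.19 and 0.28 and Cilp 0.12 and 0.24 on the same scales, and leaving out 1 library gave -0.27 to 0.00091 for Cilp and -0.087 to 0.14 for Thbs4. Against control, Fn1 was 0.21, 0.29 and 0.093 on the 3 TPM scales and -0.11 to 0.18 with 1 library left out (0.18 without C1), Thbs2 was 0.0038 on log2(TPM + 0.1) and -0.46 to 0.12 with 1 library left out (0.12 without C1), and Spp1 was -0.22 with lengths as offset and -0.093 on rescaled TPM. The cause of these changes was not tested. Depth limited Tnc and Spp1 most, at 10 to 205 counts per library.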
